A study of Mus musculus with 33 samples.

Results

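The heat shock chaperones described here are Hsf1, the transcription factor that switches on the heat shock response, and 9 genes of cytosolic or mitochondrial chaperones. They were chosen by name, and each gene was represented by the probe set that carried its symbol alone and had the highest mean over all 33 columns of values. Of the 10 genes listed, 9 had such a probe set among 18193 genes, and Hsf1 was not analysed here. RNA was measured on Affymetrix arrays in livers of mice aged 12 months, all of a mixed background that combines FVB/NT, 129S1/Svlmj and C57BL/6NT. The 21 arrays fell into 4 groups. Normal liver, per the labels, was hybridised on 7 arrays of wild-type mice (wt) and 5 of E2f3a knock-out mice (3aKO). Spontaneous hepatocellular carcinoma came from E2f1 knock-in mice (1KI, 5 arrays) and E2f3b knock-in mice (3bKI, 4 arrays). E2f1 and E2f3 encode transcription factors of the cell cycle, and E2f3a and E2f3b are isoforms of the same gene. Where the knock-in sequences lie in the genome is not given in the sources used here.

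The authors normalized the 1KI arrays together with all wt and 3aKO arrays (normalization 1), and the 3bKI arrays again with the same 12 normal livers (normalization 2). The 2 tumour groups were therefore never compared with each other, and the wt and 3aKO arrays are shared between comparisons. All tumours carry a knock-in and no knock-in sample is normal liver, so genotype and tumour status cannot be told apart. In bulk tissue, fewer cells of a type and less RNA per cell cannot be told apart either. Nothing in the labels says whether the arrays of a group came from separate animals, so p-values measure the spread between these samples.

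The targeted genes check the labels only in part, since the probe sets carry the symbols E2f1 and E2f3 and no isoform. E2f3 read 6.42 to 6.88 in 3aKO livers and 6.59 to 7.03 in wt of normalization 1 (difference -0.19 ± 0.11, adjusted p = 0.70), and whether its probes lie in the deleted part is not given in the sources used here. E2f3 read 7.14 to 7.81 in 1KI tumours, above all wt livers, and 6.58 to 7.01 in 3bKI tumours, within the 6.42 to 6.93 of wt or just above it. E2f1 read 5.83 to 6.47 in 1KI tumours and 5.84 to 6.22 in wt. None of these differences passed the test. Another E2f3 probe set, which is dimmer, read 5.52 to 5.65 in 3bKI tumours. That was above all wt livers (4.89 to 5.43) and all 3aKO livers (4.92 to 5.38) of normalization 2. In 1KI tumours the same probe set read 5.64 to 5.79, against 5.21 to 5.66 in wt, and its test is not given here. Of 7 hepatocyte markers measured, Alb read 14.8 or more and Apoa1 14.3 or more on every column, while Cyp2e1 ran from 9.57 to 14.24. The mean over the list was 13.10 to 14.01 in 1KI tumours and 13.88 to 14.12 in wt of normalization 1.

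Heat shock proteins hold unfolded proteins and help them to fold. HSP70 proteins (Hspa1a, Hspa1b and Hspa8) bind short exposed stretches of a client protein, J-domain proteins such as Dnajb1 deliver clients and start ATP hydrolysis, and HSP110 (Hsph1) releases the nucleotide again. Hsp90aa1 is the inducible cytosolic HSP90, Hspb1 is a small heat shock protein that holds clients without ATP, and Hspd1 and Hspe1 form the barrel and the lid of the mitochondrial chaperonin. HSF1 binds arrays of a short repeat, in which GAA and TTC alternate, near many of these genes, and liver expresses most of them without heat.

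Whether such repeats bear on how these genes moved together from array to array, as described further on, was not tested. The stretches of promoter that hold such repeats are shown first. They come from RefSeq windows of the GRCm38.p6 build, which run from 250 bases before to 50 bases after each gene's start. The search used GAANNTTC or TTCNNGAA as a 2-unit site, and GAANNTTCNNGAA or TTCNNGAANNTTC as a 3-unit site, so that both strands were covered and every 3-unit site also holds overlapping 2-unit sites. Capitals mark the matches, with only 3-unit matches marked for Hspe1, Hspd1, the Hsph1 site past its start and Chordc1. Each line is written 5′ to 3′ on the gene's own strand.
Hspe1, chr1:55088038-55088087, plus strand: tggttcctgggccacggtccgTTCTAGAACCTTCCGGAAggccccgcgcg
Hspd1, chr1:55088048-55088097, minus strand: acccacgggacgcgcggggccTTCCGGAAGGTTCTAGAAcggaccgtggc
Hspb1, chr5:135887794-135887843, plus strand: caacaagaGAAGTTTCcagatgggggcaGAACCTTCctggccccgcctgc
Hspa1b, chr17:34959299-34959358, minus strand: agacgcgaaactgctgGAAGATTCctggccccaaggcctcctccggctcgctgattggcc
Hspa1a, chr17:34972217-34972276, minus strand: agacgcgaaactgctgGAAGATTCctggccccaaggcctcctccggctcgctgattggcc
Hsph1, chr5:149636347-149636396, minus strand: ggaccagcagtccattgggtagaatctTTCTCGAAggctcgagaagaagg
Hsph1, 33 to 50 bases past the start, chr5:149636287-149636304, minus strand: cagaTTCTGGAAAGTTCt
Chordc1, around its start, chr9:18292259-18292288, plus strand: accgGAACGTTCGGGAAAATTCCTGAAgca

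Hspd1 and Hspe1 lie head to head on chromosome 1, with 215 bases between their starts when the Hspd1 window with a match is taken. The Hspd1 and Hspe1 lines are the same site read from opposite strands. Another Hspd1 window, chr1:55088194-55088493, has a different start and held no match. Hspa1a and Hspa1b are near-identical copies on chromosome 17, and their windows differed at 4 of 300 bases. Of the 10 genes, 7 were in the promoter table. A 2-unit site was present in at least 1 window of 6 of these 7 genes, against 4587 of all 27025 genes in the table. By window, 7 of their 10 windows held one, against 15.1% of all 32851 windows. A 3-unit site was present for 3 of the 7 genes (Hspd1, Hspe1 and Hsph1), against 0.662% of all genes. It was present in 4 of the 10 windows, against 0.603% of all windows. These counts are not of separate sites. The Hspe1 window and the Hspd1 window with a match share 285 bases and the same site. Both Hsph1 windows also hold the same 3-unit site, and the 2-unit count takes the near-identical Hspa1a and Hspa1b as separate genes. Neither Dnajb1 window held these letters, which says nothing about the factor. Chordc1, an HSP90 cochaperone that is not among the 10 genes, is shown because its level followed that of Hsph1 most closely, as described further on. Other genes that followed Hsph1 with an r over 0.8 did not all hold such a site. Stip1, Mlec, Ahsa1 and Ahsa2 had none in their windows, Fkbp4 had a 2-unit site, and Dnaja1 had a 2-unit site in 1 of 3 windows.

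Across the conditions, 1 of 45 tests of a chaperone gene passed: Hspd1, the chaperonin barrel, was lower in 3bKI tumours than in 3aKO livers. Every test was limma's moderated test on the deposited log2 values with Benjamini-Hochberg adjustment over 18193 genes, and a gene was called at an adjusted p under 0.05. Hspa1b and Hspb1 ranged over several-fold within each group, while Hspd1 ranged 1.11-fold to 1.31-fold within groups. Hspe1 ranged 1.77-fold over the 7 wt livers of normalization 1 and 1.18-fold over the 5 3aKO livers.

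**Figure D1:**
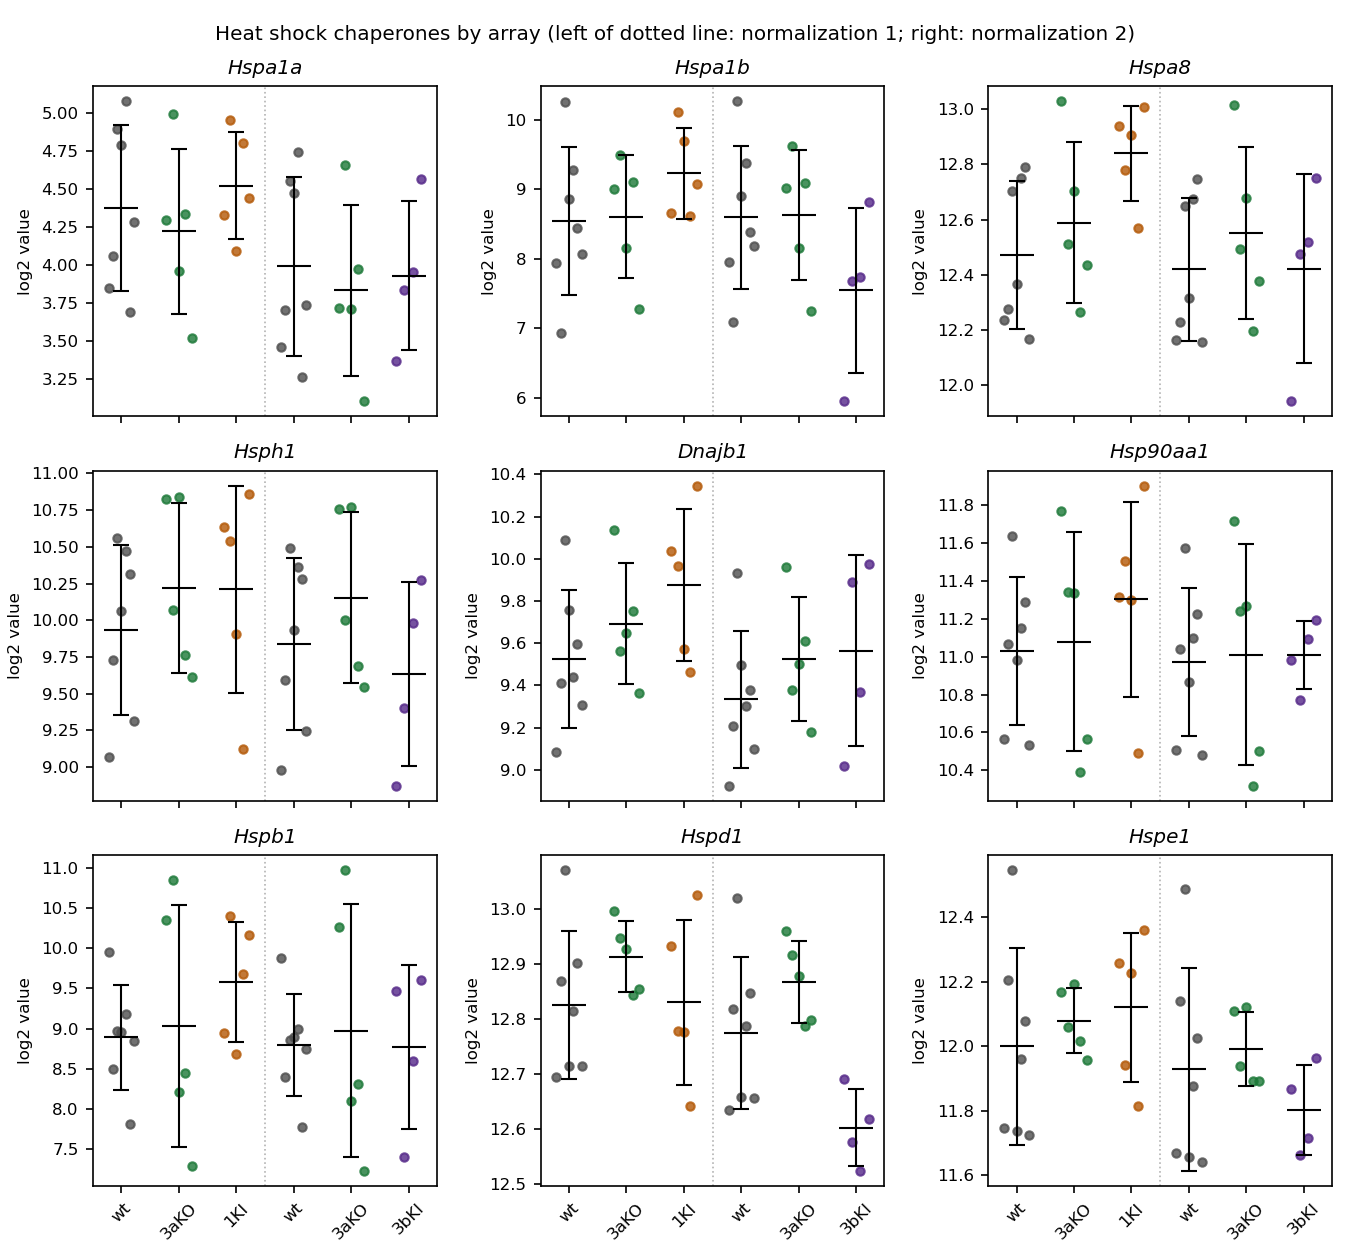
Each point is the log2 value of 1 array, with the group mean (long bar) and SD (error bar), for the 9 measured chaperone genes; groups are on the x axis, with normalization 1 left and normalization 2 right of the dotted line. Hspd1 in the 4 3bKI tumours lay between 12.52 and 12.69, below all 5 3aKO livers of the same normalization.

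Among the HSP70 genes, Hspa1b, the strongly inducible form, had the widest spread. In the 7 wt livers of normalization 1 its log2 values ran from 6.93 to 10.26 with a median of 8.44, a 10.1-fold range on the linear scale. Its SD in wt, 1.07, was above that of 99.1% of all genes, where the median gene had an SD of 0.18. In 3aKO livers the values were 9.01, 9.49, 8.16, 9.10 and 7.28, and in 1KI tumours they were 8.66, 10.11, 9.70, 8.62 and 9.07. All 5 1KI values lay inside the wt range, and their mean was higher by 0.69 ± 0.48 (log2 difference with its standard error, adjusted p = 0.428). In normalization 2 the 3bKI tumours had 5.95, 7.68, 7.74 and 8.82, against 7.09 to 10.27 (median 8.39) in wt and 9.02, 9.62, 8.15, 9.10 and 7.24 in 3aKO. The first 3bKI tumour lay below every normal liver and the other 3 lay among them. The 3bKI mean differed from wt by -1.05 ± 0.59 (adjusted p = 0.331) and from 3aKO by -1.08 ± 0.59 (adjusted p = 0.248), so neither difference passed the test. The 95% interval against wt ran from -2.32 to 0.22. The 3 probe sets of Hspa1b gave changes between -1.05 and -0.83 in that comparison, and between 0.61 and 0.69 in 1KI against wt. 

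Hspa1a, its near-identical copy, was read by a dim probe set. Its values ran from 3.10 to 5.08 over all columns, below the median of all probe sets on every array, which lay between 5.34 and 5.53. Its changes were between -0.16 and 0.30 in the 5 comparisons, and whether its probes tell the copies apart was not tested. 

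Hspa8, the HSP70 that cells make without stress, showed the lowest unadjusted p of the 9 genes in 1KI against wt. In wt its values ran from 12.17 to 12.79 with a median of 12.37. In 1KI tumours they were 12.94, 12.78, 12.91, 12.57 and 13.01, so that 3 of the 5 lay above all wt livers. The 1KI mean was higher by 0.37 ± 0.13, a 1.29-fold ratio, with an unadjusted p of 0.0142 and an adjusted p of 0.186 by limma. The call was not made, and in 3aKO livers the values of 13.03, 12.51, 12.70, 12.26 and 12.44 spanned most of both groups. Against 3aKO the 1KI mean was higher by 0.25 ± 0.14 (adjusted p = 0.436). In 3bKI tumours Hspa8 read 11.94, 12.48, 12.52 and 12.75, with a mean equal to that of wt within the error (difference 0.00 ± 0.17). The 4 probe sets of Hspa8 gave changes between 0.21 and 0.63 in 1KI against wt. The lowest came from a probe set nearly as bright as the one used, at 0.21 ± 0.15 (unadjusted p = 0.185 by limma). The highest came from the dimmest, which had r = 0.15 with the one used within groups.

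Hsph1, the HSP110 exchange factor, ranged 2.81-fold over wt livers, from 9.07 to 10.56 with a median of 10.06. In 3aKO livers it read 10.82, 10.07, 10.84, 9.76 and 9.61, and in 1KI tumours 10.63, 10.54, 9.90, 9.12 and 10.86. The groups overlapped almost entirely, and the 1KI mean differed from wt by 0.28 ± 0.33 and from 3aKO by -0.01 ± 0.36. In 3bKI tumours it read 8.87, 9.41, 9.98 and 10.28, with a mean that differed from 3aKO by -0.52 ± 0.34 (adjusted p = 0.332). The 1KI difference from 3aKO was 0.46 when 1KI arrays 3 and 4 were omitted. Those are the tumours that stood apart from all others on the first principal component of normalization 1 (scores of 61.0 and 69.8, against 5.08 or less in the other 15 arrays).

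Dnajb1, a J-domain partner of HSP70, had a wt range from 9.08 to 10.09 with a median of 9.44. In 1KI tumours it read 10.04, 9.97, 9.57, 9.46 and 10.35, a mean higher by 0.35 ± 0.18 (adjusted p = 0.306). Only the fifth 1KI tumour lay above all wt livers. Its 3bKI values of 9.02, 9.89, 9.37 and 9.98 overlapped those of wt (8.92 to 9.93) and 3aKO (9.18 to 9.96). The differences were 0.23 ± 0.21 from wt and 0.04 ± 0.22 from 3aKO.

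Hsp90aa1, the inducible HSP90, read 11.31, 11.50, 11.30, 10.49 and 11.90 in 1KI tumours, against 10.53 to 11.64 with a median of 11.06 in wt. In 3aKO livers it split into values of 11.77, 11.34 and 11.33 and values of 10.39 and 10.56. The 1KI mean was higher than wt by 0.27 ± 0.23 (adjusted p = 0.530). In 3bKI tumours it stayed between 10.77 and 11.19, with differences of 0.04 ± 0.19 from wt and 0.00 ± 0.26 from 3aKO. Another probe set of Hsp90aa1, almost as bright, gave 0.26 ± 0.18 from wt and 0.31 ± 0.24 from 3aKO. The next brightest gave 0.03 ± 0.19 and -0.02 ± 0.21, and none of these differences passed the test.

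Hspb1, the small heat shock protein, had its widest spread in 3aKO. Its 3aKO values were 10.35, 10.85, 8.22, 8.44 and 7.29, an 11.8-fold range, and its SD of 1.51 was above that of 99.7% of genes. The first and second 3aKO livers lay above all wt livers and the fifth lay below all of them. In wt it ran from 7.82 to 9.95 with a median of 8.96. In 1KI tumours it read 8.94, 10.40, 8.68, 9.68 and 10.16, a mean higher than wt by 0.68 ± 0.36 (adjusted p = 0.309). In 3bKI tumours it read 9.47, 7.40, 8.60 and 9.60, and the difference from wt of -0.02 ± 0.42 turned to 0.88 when only female arrays were fitted and to 0.43 when 3bKI array 2 was omitted. The other small heat shock proteins of a list of 8 relatives had no call in any comparison.

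Of the chaperonin pair, Hspd1 gave the 1 call. In normalization 2 its values in 3bKI tumours were 12.69, 12.58, 12.52 and 12.62, against 12.96, 12.92, 12.88, 12.79 and 12.80 in 3aKO livers. All 4 tumours lay below all 5 livers, an arrangement found for 8.95% of all genes in this comparison. The difference was -0.27 ± 0.07, a ratio of 0.832, with a 95% interval from -0.43 to -0.10 and an adjusted p of 0.0495 by limma. Of all genes, 6.27% were called lower and 2.92% higher in the same fit (1140 and 531 genes, or 1638 and 328 with each array centred on its median), so 1 of 9 chaperone genes is near the background. The call lies at the threshold: it was lost in each of the 9 fits that left out 1 array, with adjusted p-values from 0.0516 to 0.102, while the difference stayed between -0.29 and -0.24. Against wt, where values ran from 12.64 to 13.02 with a median of 12.79, the 3bKI mean differed by -0.17 ± 0.09 (adjusted p = 0.279), and 3 of the 4 tumours lay below all wt livers.

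Hspe1, the lid, had no call. In 3bKI tumours it read 11.87, 11.66, 11.72 and 11.96, against 12.11, 11.94, 12.12, 11.89 and 11.89 in 3aKO. The 3bKI mean differed by -0.19 ± 0.09 (adjusted p = 0.205), and the fourth tumour lay among the livers. In normalization 1 the 1KI mean differed from wt by 0.00 ± 0.09 for Hspd1 and by 0.12 ± 0.15 for Hspe1, and neither passed the test.

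Several measures moved with the 3bKI contrast, and their part in the Hspd1 difference was not tested beyond the fits named here. The log2 ratio of the 3-prime to the 5-prime beta-actin control probe set was 0.70 to 0.87 in 3bKI tumours and 1.06 to 1.35 in 3aKO livers, with no overlap, and 0.65 to 1.37 in wt. With that ratio as a covariate the Hspd1 difference was -0.39 ± 0.18 (adjusted p = 0.816), and no gene at all was called. Sex was read from Xist and 2 Y-linked genes: 3 3bKI tumours read as female and 1 (array 2) was unclear, while 3aKO held 3 female and 2 male arrays. In female arrays alone the difference was -0.27 ± 0.10 (adjusted p = 0.217). Quantile normalization reduced it to -0.13 (adjusted p = 0.328). Of 7 hepatocyte markers 6 were lower in 3bKI than in 3aKO, with the mean over the list at 13.61 to 13.85 in tumours and 13.91 to 14.01 in livers. Cps1, a mitochondrial enzyme of the urea cycle in hepatocytes, was called lower, with a log2 difference of -0.43 ± 0.09. Of 8 stellate and fibroblast markers 7 were higher, and Col1a1, Col1a2 and Col3a1 were called, with the list mean at 7.91 to 8.42 in tumours and 7.22 to 7.86 in livers. Of 8 macrophage markers 7 were higher, and Lyz2 was called higher by 1.06 ± 0.27 (list mean 9.39 to 11.14 in tumours and 9.21 to 10.43 in livers). Of 5 B and plasma cell markers 4 were higher, and Cd79a was called higher by 0.40 ± 0.11 (list mean 6.54 to 7.54 and 6.25 to 7.20). All 5 neutrophil and all 5 cholangiocyte markers measured had higher means in 3bKI without a call, and 2 of each list lay below the array median on every array of both groups.

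**Figure D2:**
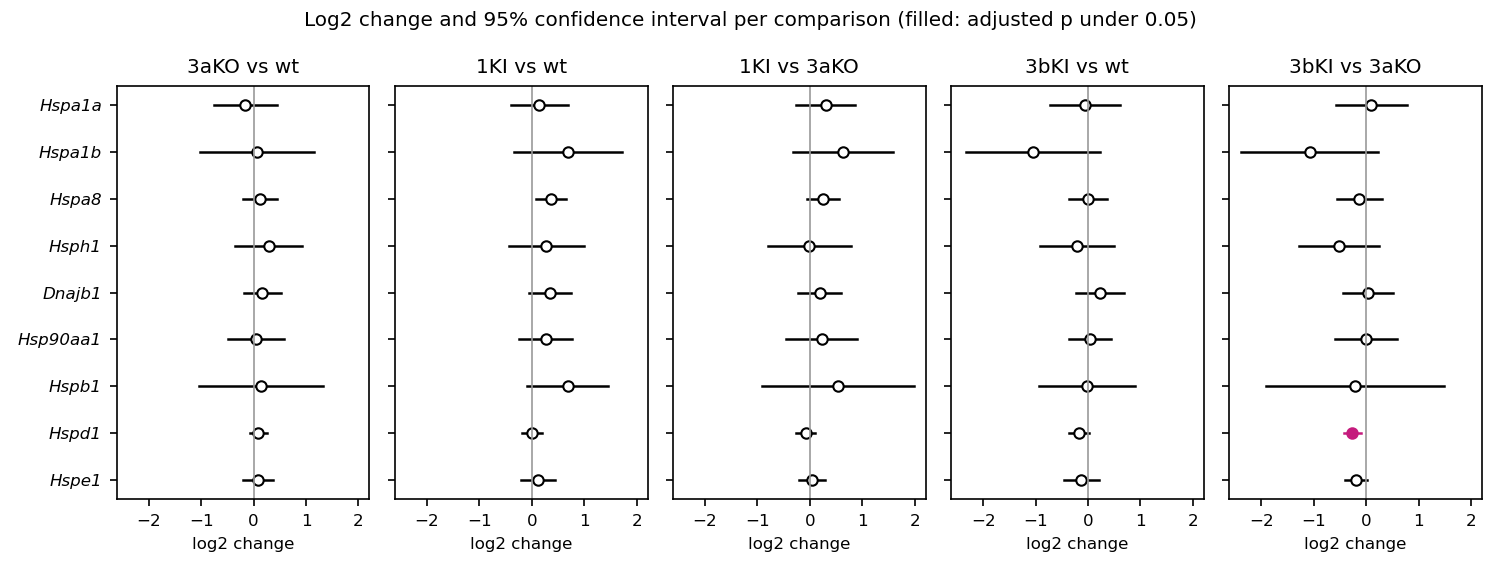
Points give the log2 change of each chaperone gene and lines its 95% confidence interval, in 1 panel per comparison; filled symbols passed an adjusted p under 0.05. The filled symbol is Hspd1 in 3bKI against 3aKO at -0.27, and all other intervals except that of Hspa8 in 1KI against wt (0.09 to 0.65) include 0.

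In normalization 1 the group means ran in the order 1KI, 3aKO, wt from highest to lowest for 6 genes: Hspa1b, Hspa8, Dnajb1, Hsp90aa1, Hspb1 and Hspe1. For Hsph1 and Hspd1 the order was 3aKO, 1KI, wt, and for Hspa1a it was 1KI, wt, 3aKO. In normalization 2 the order was 3aKO, wt, 3bKI for 5 genes: Hspa1b, Hsph1, Hspb1, Hspd1 and Hspe1. No neighbours in any of these orders differed by a test that passed. The Hspd1 means in normalization 2 were 12.87 ± 0.07 in 3aKO (SD, n = 5), 12.77 ± 0.14 in wt (n = 7) and 12.60 ± 0.07 in 3bKI (n = 4), and its call was between the first and the last of them.

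By direction, 9 of 9 chaperone genes had a higher mean in 1KI than in wt, with a median change of 0.28, where 43.3% of all genes were higher. None of the 9 was called, and 0.242% of all genes were (38 higher and 6 lower). Against 3aKO, 7 of 9 were higher in 1KI, with a median of 0.22, and none of the 9 was called. That fit called 0% of all genes, although 2550 had an unadjusted p under 0.05. In 3bKI, 3 of 9 had a higher mean than in wt (median change -0.06) and 2 of 9 a higher mean than in 3aKO (median -0.19). Of all genes 53.1% and 54.7% were higher in these fits. In 3bKI against wt 0 of 9 were called lower, and 0.978% of all genes were (178 lower and 199 higher, or 548 and 197 with each array centred). In 3aKO against wt, 8 of 9 means were higher in 3aKO with a median of 0.09, and 0% of all genes were called, with 1357 at an unadjusted p under 0.05. The genes are not independent of each other, as their correlations show, and these counts carry no test.

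Of the wider chaperone network, the mitochondrial machinery is given first. In 3bKI against 3aKO, 5 of the 12 measured genes of a list of mitochondrial proteostasis were called lower and none higher, where 6.27% of all genes were called lower and 2.92% higher. Of the 12, 11 were below 0, and the median change was -0.30, against 0.03 over all genes. Hspa9, the mitochondrial HSP70, read 11.23, 10.81, 10.92 and 11.04 in 3bKI and 11.55, 11.59, 11.46, 11.74 and 11.56 in 3aKO, a log2 difference of -0.58 ± 0.10 (adjusted p = 0.0153). Every tumour lay below every liver. Trap1, the mitochondrial HSP90, differed by -0.44 ± 0.08 (adjusted p = 0.0185) and Lonp1, a protease of the matrix, by -0.41 ± 0.10 (adjusted p = 0.0383). Dnaja3, the J-domain partner of Hspa9, differed by -0.40 ± 0.09 (adjusted p = 0.0333) and Grpel1, its nucleotide exchange factor, by -0.37 ± 0.09 (adjusted p = 0.0352). Hspa9 was also called lower against wt, where it ran from 11.16 to 11.68, with a difference of -0.51 ± 0.12 (adjusted p = 0.0481). It was the 1 call among the 12 in that comparison, where 0.978% of all genes were called lower. That call lies near the threshold, and its alternative fits are not given here. The fits with 1 array left out called 2 to 5 of the 12 against 3aKO, and quantile normalization called 2. The fits with sex as a covariate, in female arrays, with the replicate block and with the actin ratio called none, while 9 to 11 stayed below 0. The list had 8 of 12 below 0 in 1KI against wt (median -0.18) and 11 of 12 in 1KI against 3aKO (median -0.21), with no call.

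**Figure D3:**
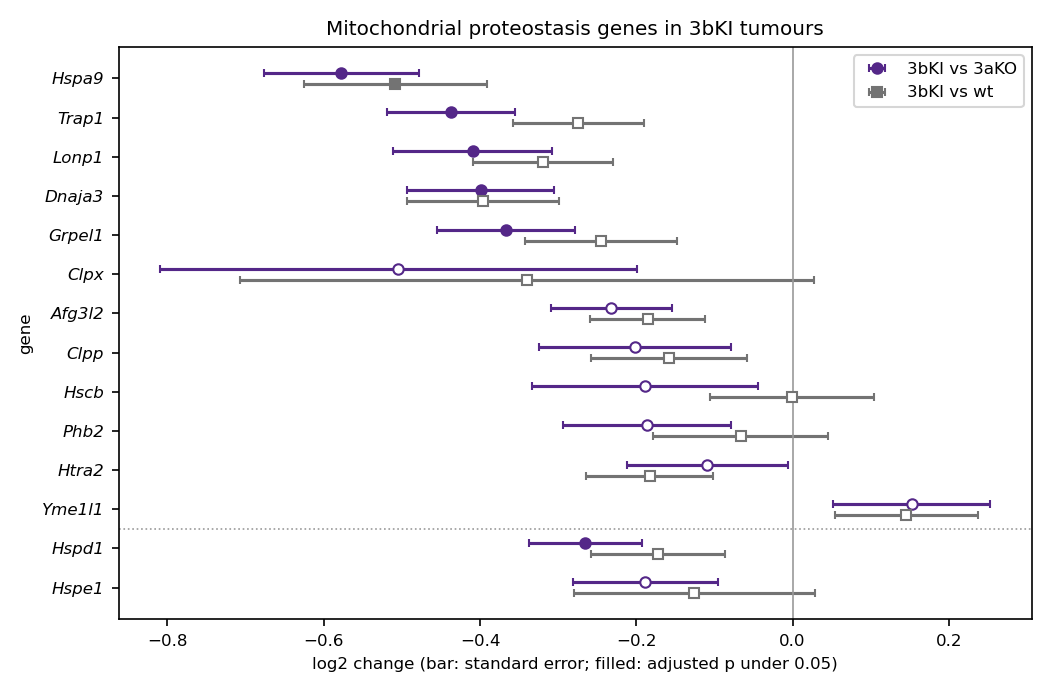
Log2 change (x axis, bars are standard errors) of 12 mitochondrial proteostasis genes and, under the dotted line, of Hspd1 and Hspe1 in 3bKI tumours against 3aKO livers (circles) and wt livers (squares); filled symbols passed an adjusted p under 0.05. Hspa9 was lowest in both comparisons, at -0.58 and -0.51, and Yme1l1 was the gene above 0 in both.

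The other chaperone lists, which mix cytosolic with mitochondrial genes, also held calls in 3bKI against 3aKO, where 6.27% of all genes were called lower and 2.92% higher. Of 15 J-domain genes 4 were called lower, among them Dnajb14 (log2 difference -0.58 ± 0.10), Dnaja3 and Dnajc7 (-0.37 ± 0.09). Of 10 exchange factors and HSP70 cochaperones 2 were called lower, Bag4 (-0.70 ± 0.17) and Grpel1, and all 10 were below 0 with a median of -0.33. Of 12 HSP90 relatives and cochaperones 2 were called lower, Trap1 and Cdc37l1 (-0.49 ± 0.12), and of 14 genes of the cytosolic CCT chaperonin and prefoldin 1 was, Tcp1 (-0.34 ± 0.08). Of 9 HSP70 and HSP110 relatives Hspa9 was the 1 called, and none of 6 genes of the HSF family and its partners was called in any comparison. Counts of 1 of 14 and 1 of 9 are near the share over all genes. Hsf2, the member of that family with the lowest p against 3aKO, was higher by 0.41 ± 0.15 (adjusted p = 0.118). These lists share the mitochondrial genes Hspa9, Trap1, Grpel1 and Dnaja3 with the list before, so the counts overlap, and whether the lists differ in their share of calls was not tested. In 3bKI against wt the calls among these lists were Hspa9 alone, and in 1KI against wt, 1KI against 3aKO and 3aKO against wt there was none.

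The chaperones of the endoplasmic reticulum were listed for comparison, since another stress response controls them. In 1KI tumours all 15 were above 0 against wt, with a median of 0.32, where 43.3% of all genes were above 0. Of the 15, 1 was called, where 0.242% of all genes were: Serpinh1, the collagen chaperone, was higher by 0.99 ± 0.17 (adjusted p = 0.0394). Stellate and fibroblast markers moved with it, with 7 of 8 above 0 and Pdgfrb called higher by 0.76 ± 0.12, and a list mean of 7.91 to 8.44 in 1KI against 7.21 to 7.73 in wt. Of 8 endothelial markers 6 were above 0, and Plvap was called higher by 1.00 ± 0.16 (list mean 8.01 to 8.42 against 7.84 to 8.18). Of 8 macrophage markers 6 and of 6 T and NK cell markers all 6 were below 0, without a call (list means 8.56 to 9.96 against 8.99 to 10.07, and 5.52 to 5.93 against 5.57 to 6.36). The part of these cell types in the result was not tested. In 3bKI against 3aKO, 13 of the 15 endoplasmic reticulum chaperones were above 0, where 54.7% of all genes were. Of the 15, 1 was called higher, which is near the 2.92% of all genes. It was Dnajc3, a J-domain protein of the endoplasmic reticulum, higher by 0.45 ± 0.11.

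Immediate early genes, which respond within minutes to handling and stress of tissue, were listed beside the heat shock genes. In 3bKI 5 of 15 were called higher than in wt, where 1.09% of all genes were called higher, among them Btg2 (by 2.02 ± 0.38), Jun (by 1.71 ± 0.22) and Atf3 (by 1.32 ± 0.26), and 4 of 15 were called higher than in 3aKO, against 2.92% of all genes. In 1KI 1 of 15, Jun, was called higher than in wt by 1.68 ± 0.25, where 0.242% of all genes were called. Beside them, Hspa1b was below 0 in both 3bKI comparisons and above 0 in both 1KI comparisons, without passing the test in any. Circadian clock genes, which liver cycles over the day, had no call in any comparison. In 3bKI, 10 of 14 were below 0 against wt (median change -0.45) and 11 of 14 against 3aKO (median -0.46). The medians over all genes were 0.01 and 0.03. In 1KI against wt, 6 of 14 were below 0, with a median of 0.01.

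Within groups, levels of many of the chaperone genes varied together from array to array. The correlation was taken over deviations from the group means of the 17 arrays of normalization 1, which share a normalization, with p-values from 100000 permutations within groups and Benjamini-Hochberg adjustment over the 36 pairs of genes. By Pearson's r 17 of 36 pairs passed, by Spearman's rho 16, and 34 of 36 r values were above 0. The share over all pairs of genes is not given here. Within groups, r with the first principal component was -0.63 for Hsph1, -0.62 for Hspd1, -0.61 for Dnajb1 and -0.52 for Hsp90aa1. It was -0.40 for Hspe1, -0.32 for Hspa8, and between -0.10 and 0.05 for Hspa1a, Hspa1b and Hspb1. The part of that component, which carried 32.3% of the variance, in the pair counts was not tested. Hspd1 and Hspe1, which share the promoter region shown, gave the highest r of all pairs, 0.92 (p = 3e-05, adjusted p = 0.00036), with rho = 0.89 (p = 4e-05, adjusted p = 0.00048). Without the 2 arrays farthest from the median of Hspd1, r was 0.86, and it was 0.95 in the 12 normal livers alone. Hsp90aa1 and Hsph1 followed with r = 0.89 (p = 1e-05, the smallest the permutations can give, adjusted p = 0.00036) and rho = 0.85 (p = 0.00016, adjusted p = 0.00108), and r was 0.86 without the 2 arrays farthest in Hsp90aa1. Hspa8 and Hsph1 gave r = 0.84 (p = 5e-05, adjusted p = 0.00036) and rho = 0.85 (p = 3e-05, adjusted p = 0.00048), and r was 0.81 without the 2 farthest arrays.

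The r values differed between sets of these genes, and by how much depended on the setting. All 15 pairs among Hspa8, Hsp90aa1, Hsph1, Dnajb1, Hspd1 and Hspe1, a set picked after the values were seen and so given without a test, had r between 0.61 and 0.92 with a median of 0.77. Their r ran from 0.55 to 0.98 in wt livers alone, from 0.56 to 0.96 without 1KI arrays 3 and 4, and from 0.45 to 0.91 in normalization 2. Hspb1 gave r between -0.12 and 0.33 with those 6 genes, 0.21 to 0.65 when deviations were taken within group and sex, and -0.45 to -0.34 in the 7 wt livers alone. Hspa1b gave r between 0.27 and 0.50 with them, and 0.70 to 0.90 within group and sex. Hspa1a, dim as it is, went with Hspa1b at r = 0.70 (p = 0.00588, adjusted p = 0.0176; rho = 0.70, p = 0.00512, adjusted p = 0.0143; r = 0.62 without the 2 farthest arrays) and with Hspb1 at r = 0.62 (p = 0.0122, adjusted p = 0.0275; rho = 0.64, p = 0.00976, adjusted p = 0.0251; r = 0.56 without the 2 farthest arrays).

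**Figure D4:**
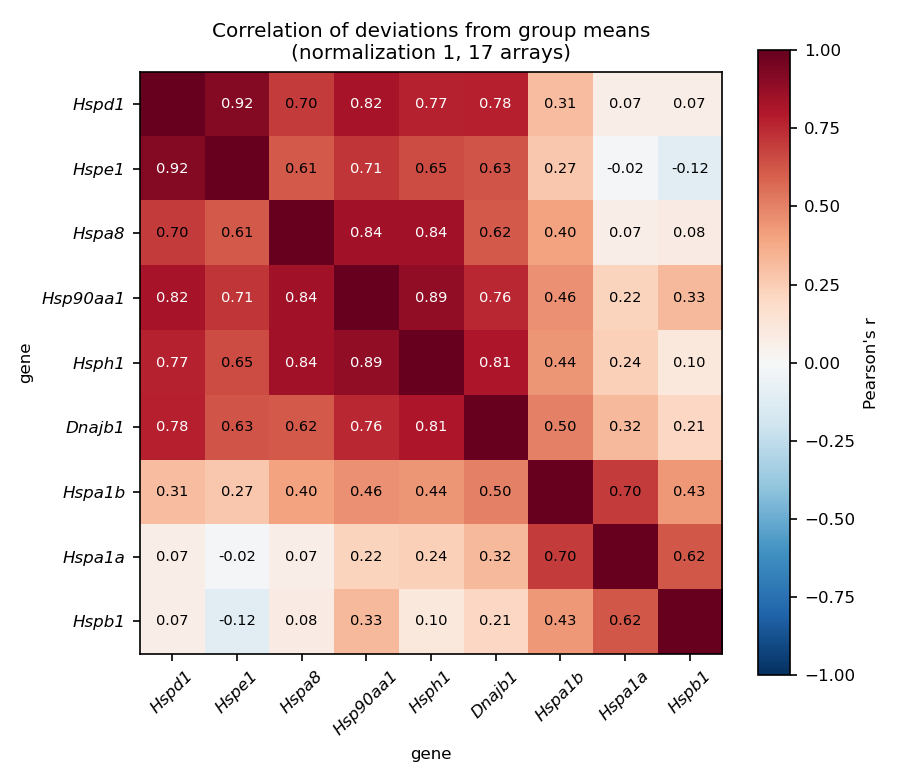
Pearson's r between the 9 chaperone genes (both axes), from deviations from the group means of the 17 arrays of normalization 1; red is positive and blue negative. The 6 genes at the upper left have r of 0.61 or more with each other, and Hspb1 lies between -0.12 and 0.33 with them.

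The genes outside the 10 whose pattern was most like that of Hsph1 were Chordc1 (r = 0.92), Dnaja1 (r = 0.91), Stip1 (r = 0.88), Uspl1 (r = 0.88) and Mlec (r = 0.88), over the same 17 arrays and given as a description. Chordc1 and Stip1 are HSP90 cochaperones, and Dnaja1 is a J-domain protein. In the 12 normal livers these r values were 0.94, 0.89, 0.93, 0.81 and 0.80. Of 18192 other genes, 16 had r over 0.8 with Hsph1 (0.0880%). They held 3 of the chaperone genes (Hsp90aa1, Hspa8 and Dnajb1) and 6 genes of the wider chaperone lists, which beside Chordc1, Dnaja1 and Stip1 were Ahsa2, Fkbp4 and Ahsa1, named here after their values were seen. Of the 12 HSP90 relatives and cochaperones 5 were among the 16, with a median r of 0.65 over that list, where the median over all genes was 0.01. The median r to Hsph1 was 0.13 over the mitochondrial list, 0.08 over the CCT and prefoldin list and 0.04 over the endoplasmic reticulum list. Stub1, the ubiquitin ligase that works with HSP70, ran the other way at r = -0.82, and is also named after its value was seen. The genes most like Hspe1 were Timm8a1 (r = 0.87), an import chaperone of the mitochondrial intermembrane space, Fam102a (r = 0.85), Dnajb6 (r = 0.85), Trp53rkb (r = 0.83) and Dmc1 (r = 0.81). For Hspa1b no gene reached 0.8, and P4ha1, Slc5a9, Tcp11x2, Sox2 and Tmod4 came first with r from 0.72 to 0.74.

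The chaperonin genes read higher on arrays read as female than as male in wt and 1KI, while the sexes overlapped in 3aKO. In wt the 3 female arrays had Hspd1 values of 12.87 to 13.07 and the 4 male arrays 12.69 to 12.82, and Hspe1 values of 12.08 to 12.54 and 11.72 to 11.96. The sexes did not overlap for either gene, and the share of all genes that separate the sexes in so few arrays is not given here. In 1KI the 2 female tumours had Hspd1 at 12.93 to 13.03 and the 3 male tumours at 12.64 to 12.78, and Hspe1 at 12.26 to 12.36 and 11.81 to 12.23. Of the 3 male tumours 2 are arrays 3 and 4, which stood apart on the first principal component, and Hspd1 had r = -0.62 with that component within groups over the 17 arrays. The third male tumour, array 2, had Hspd1 at 12.78. In 3aKO they overlapped, with Hspd1 at 12.85 to 13.00 in 3 female livers and 12.84 to 12.95 in 2 male livers. The pattern was noticed in these values and was not tested. The r of Hspd1 with Hspe1 was 0.83 when deviations were taken within group and sex.

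**Figure D5:**
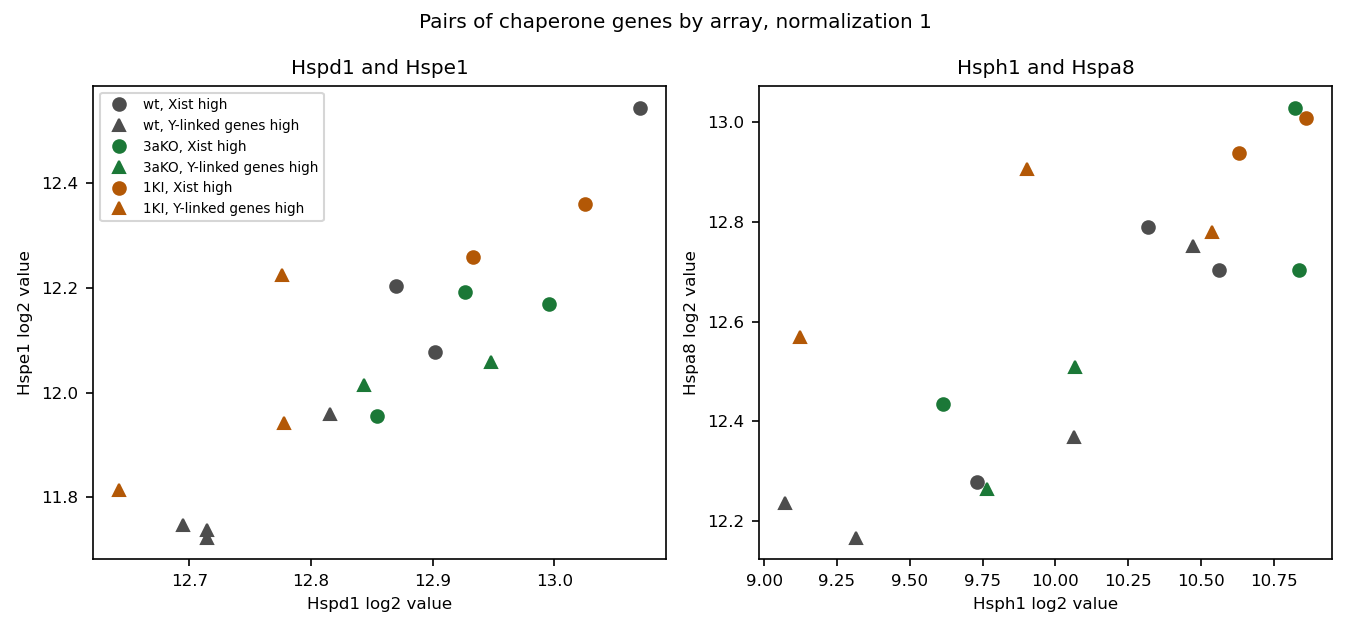
Log2 values of Hspe1 against Hspd1 and of Hspa8 against Hsph1 in the 17 arrays of normalization 1, coloured by group; circles are arrays read as female (Xist high) and triangles as male (Y-linked genes high). In wt the 3 circles lie above and to the right of all 4 triangles in the Hspd1 and Hspe1 plot.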

How the data were processed

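The values are log2 expression per probe set, as deposited by the authors in 2 normalization runs named in the labels, with summary and normalization methods not given in the sources used here. Per the labels, biotin-labelled cRNA was made from 5 ug of total RNA. Of 45101 probe sets, 34945 had 1 gene symbol, 932 several and 9160 none, and 64 were controls. The probe set with the highest mean stood for each of 18193 genes. The 2 groups of a comparison were fitted alone with limma 3.58.1 in R 4.3.3 (lmFit, eBayes, Benjamini-Hochberg), after the code was tested on simulated data. The 10 genes, the gene lists and the tests were chosen with earlier results of these data known. Of each list the text names, per comparison, up to 3 called genes with the largest change, or where none was called at most the gene with the lowest p, and the 5 genes most like Hsph1, Hspe1 and Hspa1b. Arrays give no counts, so the number of arrays limits the precision. Alternatives covered scaling, dim genes, probe sets, arrays in the fit, variance model, array weights, replicate number, sex, actin ratio and each array left out. Promoters came from RefSeq (GRCm38.p6), with 7 of 10 genes matched.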

Additional observations from a re-analysis of the deposited data

How the results depend on the processing

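The count of chaperone genes called was 0 in each alternative of 3aKO against wt, 1KI against wt, 1KI against 3aKO and 3bKI against wt. In 3bKI against 3aKO, where Hspd1 was the 1 call, the count was 0 under quantile normalization, with every probe set tested, with trend and robust eBayes, with array weights, with the replicate block, with sex as a covariate and with the actin ratio as a covariate. It was also 0 in 2 alternatives chosen after seeing the data, female arrays only and 3bKI array 2 omitted, and it ranged from 0 to 0 over the 9 fits that left out 1 array. It stayed at 1 with arrays centred on the median, without dim genes, with the mean of probe sets and with 3 groups in the fit. Over all of these Hspd1 changed by -0.39 to -0.13, with adjusted p from 0.0368 to 0.816. The cause was not tested.

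Of 1044 values of uncalled chaperone genes under alternatives, 121 had the opposite sign (58 with 1 array left out), none was called, and their median size was 0.06. The largest was 0.88, Hspb1 in 3bKI against wt with sex as a covariate. Deviations of same-numbered arrays had r from -0.47 to 0.44. The same number gave the highest r for 2 of 4 arrays in each 3bKI comparison and for at most 1 of 5 in the others. These values do not settle whether replicate numbers pair the samples. Under the replicate block Hspd1 changed by -0.28 (adjusted p = 0.111). Over all genes, 3bKI against 3aKO called 490 to 1440 genes with 1 array left out and 0 to 3125 under other settings, 3bKI against wt 49 to 848 and 0 to 996, and 1KI against wt 2 to 69 and 1 to 313.

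Correlations were recomputed in 7 settings added after the data were seen. Pairs past the threshold numbered 10 in normalization 2, 11 in normal livers, 14 without 1KI arrays 3 and 4, 17 within group and sex and 2 in the 7 wt livers, where the adjusted p of Hspd1 with Hspe1 was 0.0371.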
